A study of Mus musculus with 48 samples.

Results

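H3K27ac peaks that were found in both deposited sets of a group and that lay outside every H3K4me3 peak were collected over 6 groups of cells from mouse limbs. A second-set (replicate 2) H3K27ac peak was kept when it shared 1 base or more with a first-set (replicate 1) peak of its group and no base with a peak of any of the 6 H3K4me3 lists. The members were thus chosen by their H3K27ac and H3K4me3 peaks, and these marks describe them without a test. The rule kept 268 of 15529 second-set peaks. Merging them over the groups gave 248 regions, of the 12229 that all second-set peaks give when merged. The donors were C57BL/6 mice on postnatal day 3, and 3 populations had been sorted from their limbs. By their labels these are skeletal stem cells (SSC), progenitors of bone, cartilage and stroma (BCSP) and the stage named as preceding the latter (pBCSP). Each population came from mice with Ptip f/f, floxed alleles without Cre (WT), or from Ptip f/f mice that also carried Col2a1-cre (KO), in which Cre follows the promoter of the main cartilage collagen gene. All 6 groups thus carried the floxed alleles, and only the KO groups carried Cre. Each group had 2 RNA libraries, 2 H3K27ac lists, 1 H3K4me1 list and 1 H3K4me3 list. The labels do not say that replicates came from separate animals, so the spread behind each p-value is that between libraries or lists and may be technical.

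H3K27ac, acetylation of lysine 27 of histone H3, marks active enhancers and promoters. H3K4me3 marks promoters of genes in use, and H3K4me1 marks enhancers and the flanks of promoters. Acetylated sites without H3K4me3 are therefore the usual candidates for active enhancers, which in limb cartilage and bone cells lie near and far from genes of the skeletal matrix and of growth factor signalling. PTIP, the product of Ptip (now Paxip1), is an adaptor protein of the MLL3 and MLL4 complexes, which place methyl groups on H3K4 at enhancers.

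Of 21900 protein-coding genes 17492 had an annotated start, and so a promoter window, in the annotation used. Lsp1 was among the genes without one, which could not be searched. Of the protein-coding genes with a window, only Syt8 had one under a region. Syt8 encodes a protein of the synaptotagmin family of membrane-fusion regulators. The window is printed because the acetylated region covers the gene start and because Syt8 RNA is among the nearest-gene RNAs tested below. It holds 250 bases before and 50 after an annotated start (RefSeq, GRCm38.p6, plus strand, chr7:142434727-142435026), and capitals mark the 228 bases that lie under the region at chr7:142434799-142435515.
Syt8 promoter: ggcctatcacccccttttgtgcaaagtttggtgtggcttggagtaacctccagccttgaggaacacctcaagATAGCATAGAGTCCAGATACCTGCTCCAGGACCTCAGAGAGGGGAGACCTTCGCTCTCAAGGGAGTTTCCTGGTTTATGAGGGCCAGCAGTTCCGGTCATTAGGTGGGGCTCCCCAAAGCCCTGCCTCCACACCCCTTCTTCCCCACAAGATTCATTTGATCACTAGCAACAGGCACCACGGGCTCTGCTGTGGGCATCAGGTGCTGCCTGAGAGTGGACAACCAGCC
The search covered both strands and 10 motifs, and none was found in these letters. The share of 32544 distinct promoter windows of the same length that hold each motif was 7.79% for AP-1 (TGANTCA), 10.6% for SOX (AACAAT), 16.7% for RUNX (TGTGGT), 14.6% for TEAD (GGAATG) and 2.32% for ETS (ACCGGAAG). It was 1.80% for CRE (TGACGTCA), 11.2% for GATA factors (AGATAA), 3.24% for the hypoxia response element (TACGTG), 5.29% for the homeodomain motif (TAATTA) and 0.0369% for the palindromic NFI motif. The window of the other annotated Syt8 start, chr7:142434600-142434899, held 1 AP-1 match, and that match lay outside the acetylated bases. The printed window had 56.0% G and C and 3 CpG, against medians of 53.0% and 7 over all windows. The window of 1 noncoding RNA, Gm31718, shared 15 bases with another region, and no miRNA hairpin lay under any region.

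The kept peaks were spread unevenly over the groups. SSC WT held 1, SSC KO 9, pBCSP WT 74, pBCSP KO 21, BCSP WT 10 and BCSP KO 153. KO held more of them than WT in SSC and BCSP, and fewer in pBCSP. The second-set lists held 137, 1119, 3811, 1105, 785 and 8572 peaks in the same order, so the longest lists kept the most peaks. The part of list length in these differences was not tested. As a share of the second-set peaks that also overlapped the first set, the kept peaks made up 1.92% in SSC WT (exact 95% binomial interval 0.0487 to 10.3), 2.17% in SSC KO (0.999 to 4.09), 5.22% in pBCSP WT (4.12 to 6.51), 4.09% in pBCSP KO (2.55 to 6.18), 5.35% in BCSP WT (2.59 to 9.61) and 5.34% in BCSP KO (4.55 to 6.23). These intervals cover counting error only. Each share comes from 1 pair of lists and from the marks that the rule used, so the intervals do not compare WT with KO. The other reproducible peaks, 5180 in all, overlapped an H3K4me3 peak. The fold enrichment of a peak is the authors' own value, and it describes peaks here without a test. Its median over the kept second-set peaks was 5.50 in SSC WT, 6.31 in SSC KO, 5.05 in pBCSP WT, 6.91 in pBCSP KO, 5.72 in BCSP WT and 5.57 in BCSP KO. The strongest kept peak of each group lay near Rab3gap2 (5.50-fold, SSC WT), Fgfrl1 and Tomm20 (both 7.23-fold, SSC KO), Vwa1 (10.1-fold, pBCSP WT), Wwp2 (8.55-fold, BCSP WT) and Pex11g (10.4-fold, BCSP KO). In pBCSP KO 4 peaks shared the highest value, 8.84-fold, near Rap1gap2, Hapln1, Ttll1 and Slc14a2.

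**Figure D1:**
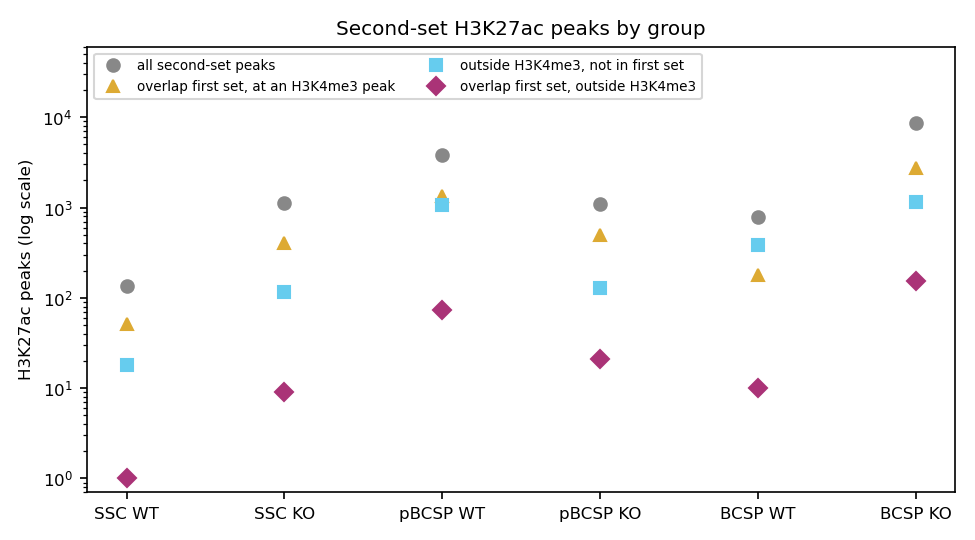
Second-set H3K27ac peaks in each of the 6 groups (log scale): all peaks, those that overlap the first set at an H3K4me3 peak, those outside H3K4me3 that are absent from the first set, and those kept. The kept peaks are the lowest symbol in every group, from 1 in SSC WT to 153 in BCSP KO, and the lists of 3811 and 8572 peaks keep the most.

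The edge of the rule was narrow. The kept peak that shared least with the first set shared 4 bases, while a peak that touched a first-set peak without sharing a base was not kept. The kept peak closest to an H3K4me3 peak lay 2 bases from it, and the rejected reproducible peak with the least H3K4me3 shared 2 bases. Of the 248 regions, 130 (120 on 1 side and 10 on both sides) lay less than 1 kb from an H3K4me3 peak of some group, and 118 had none within 1 kb. Only 43 regions were 10 kb or more from any H3K4me3 peak. The median gap was 0.724 kb and the largest 338 kb. In all, 52.4% of the regions had H3K4me3 within 1 kb.

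Most regions were kept in 1 group. The count was 231 regions in 1 group, 14 in 2 groups and 3 in 3 groups. Sharing was most frequent between pBCSP WT and BCSP KO (9 regions) and between pBCSP WT and pBCSP KO (7 regions). A group that did not keep a region could still list a peak there. Of the 231 regions kept once, 138 overlapped a first-set or second-set H3K27ac peak of another group. A first-set peak was present in 2 or more groups at 138 (55.6%) of all regions and in all 6 groups at 1, chr4:144882593-144883013, which lies inside Vps13d and 10.02 kb from Dhrs3, a retinal reductase gene.

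The 3 regions kept in 3 groups lay near Prelp, Cd27 and Msl2. The region at chr1:133952551-133952991 lay 31.4 kb from Prelp, which encodes a leucine-rich proteoglycan of connective tissue. Its second-set fold enrichment was 6.43 in pBCSP WT, 6.91 in pBCSP KO and 6.37 in BCSP KO, and all 6 H3K4me1 lists had a peak there. The region at chr6:125256759-125257259 lay 19.98 kb from Cd27, a gene of a lymphocyte receptor. It had second-set values of 4.59, 7.85 and 5.57 in the same 3 groups and H3K4me1 in all 6 lists, although Cd27 RNA stood at 0.108 to 1.02 CPM (counts scaled to a library size of 1e+06) in WT and 0.183 to 0.499 in KO libraries. The region at chr9:101097567-101097961 lay inside Msl2, which encodes a ubiquitin ligase of a histone acetylation complex. It was kept in SSC KO (6.16-fold), pBCSP KO (7.85-fold) and BCSP WT (7.52-fold), and H3K4me1 was listed there in SSC KO and pBCSP KO only. Of the 17 regions kept in 2 or more groups, 16 were kept in both a WT and a KO group, 13 had H3K4me1 in all 6 lists and 12 lay inside a gene. Others of these 17 lay near Sparc, Snx29, Mn1, Wipi1, Myzap, Lsp1 and Zmiz1, and Sparc encodes a collagen-binding matrix protein of bone.

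**Figure D2:**
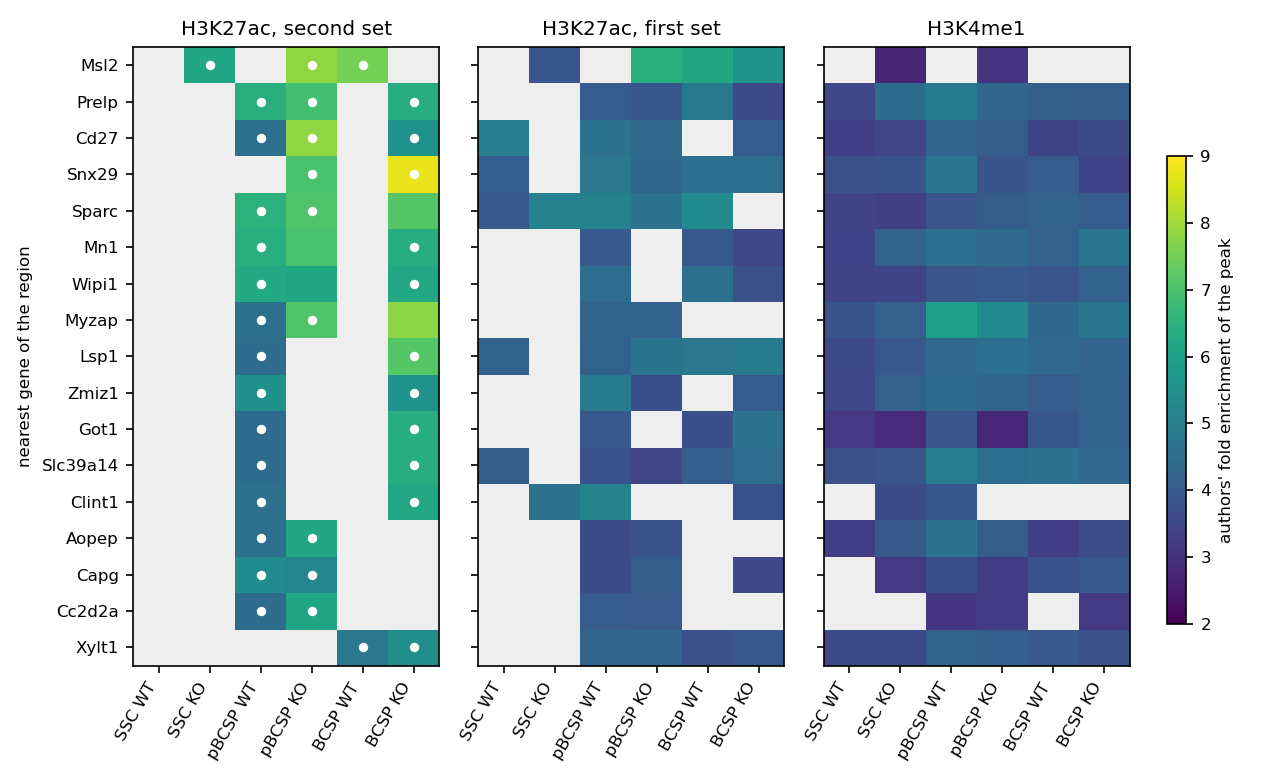
The authors' fold enrichment (colour) of the peak at each of the 17 regions kept in 2 or more groups, in the 6 second-set H3K27ac, 6 first-set H3K27ac and 6 H3K4me1 lists. White dots mark the groups that keep the region, grey means that no peak was listed, and 13 rows are filled across all 6 H3K4me1 lists.

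H3K4me1, which the rule did not use, was listed at nearly all of the regions. A peak in at least 1 of the 6 lists covered 239 of 248 regions (96.4%, exact 95% interval 93.2 to 98.3), and 161 regions (64.9%) had one in all 6. The union of the H3K4me1 peaks covered 11.1% of the genome. By list the share of regions was 66.1% in SSC WT, 85.5% in BCSP WT, 89.1% in SSC KO, 91.5% in BCSP KO and 92.7% in both pBCSP lists. The lists covered between 3.14% (SSC WT) and 7.97% (BCSP KO) of the genome, and SSC WT was lowest in both respects. Over the 3 populations the share was 91.1% ± 1.85 (SD, n = 3) in KO and 81.5% ± 13.8 in WT. That difference was smaller than the spread between the WT populations (exact unpaired permutation test, two-sided, p = 0.4, where 0.1 is the smallest value that 3 against 3 allow). The test left out the pairing by population. Of the 248 regions 142 were kept in BCSP KO alone, so the regions were not neutral between genotypes and the test cannot decide the question. Regions with H3K4me1 in KO lists only numbered 8, and those with it in WT lists only numbered 3.

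All 9 regions without any H3K4me1 peak were kept in BCSP KO alone. They were 9 of the 142 regions kept in that group alone, while none of the 106 others lacked the mark. They lay near Sos2, Slc28a3, Map3k4, Commd10, Mrgprd, Adgra2, Asmt and, for 2 regions 0.720 kb apart from end to end, Dnajc13. These 9 were singled out after their values were seen. Their gap to the nearest H3K4me3 peak was 11012 to 84574 bases, so they stood apart from both methylation marks. Their second-set fold enrichment, 3.98 to 8.28, lay within the range of all kept BCSP KO peaks (3.89 to 10.4). Their first-set fold enrichment was 2.62 to 4.94 and included the lowest values of any kept BCSP KO peak, 2.62 near Mrgprd and 2.72 near Asmt, beside a group median of 4.01.

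Kept peaks were compared with reproducible H3K27ac peaks at H3K4me3 sites, group by group. H3K4me1 of the same group covered 100% of kept peaks in SSC WT, SSC KO and pBCSP KO, 98.6% in pBCSP WT, 89.5% in BCSP KO and 70.0% in BCSP WT. Peaks at H3K4me3 sites had 68.6%, 81.2%, 75.9%, 67.6%, 79.8% and 63.8% in these groups. The kept peaks were higher in 6 of 6 groups, by 20.2 percentage points ± 10.6 (SD, n = 6; exact paired permutation test, two-sided, p = 0.03125, the smallest that 6 pairs allow; adjusted p = 0.03125 over 3 measures). SSC WT held 1 kept peak and SSC KO 9, and in BCSP WT 7 of 10 carried the mark. Each group counts equally in the test, so its 6 of 6 signs rest partly on these few peaks. H3K4me1 and H3K4me3 are states of the same lysine, and the split used H3K4me3. The rule may therefore partly set the H3K4me1 difference, and its p-value is not read as support. Kept peaks were also farther from a gene start, with a mean of group medians of 39.3 kb against 6.26 kb (difference 33.0 ± 20.9 kb). H3K4me3 is the promoter mark, so the rule partly sets this distance, which is given as a description. The mean of group medians in width, a measure added after the data were seen, was 229 bases for kept peaks and 258 for the others. Distance and width were the other measures of the 3 and gave the same p (exact paired permutation test, p = 0.03125 for each). Neither p-value is read as support. For width, a peak that shares no base with H3K4me3 is more easily a narrow one. The H3K4me1 difference depended on the overlap of both sets. With second-set peaks alone the H3K4me1 difference turned to -20.3 points (exact p = 0.03125), and with first-set peaks alone it was -0.948 (exact p = 0.906). In a further split, chosen after the data were seen, second-set peaks outside H3K4me3 that the first set lacked had H3K4me1 at 51.2% on average, against 93.0% for the kept ones, and were lower in 6 of 6 groups (difference 41.8 ± 23.3). The rule used first-set overlap, so this is a description. First-set H3K27ac and H3K4me1 lists share the broad-peak layout, and the part of that layout was not tested.

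**Figure D3:**
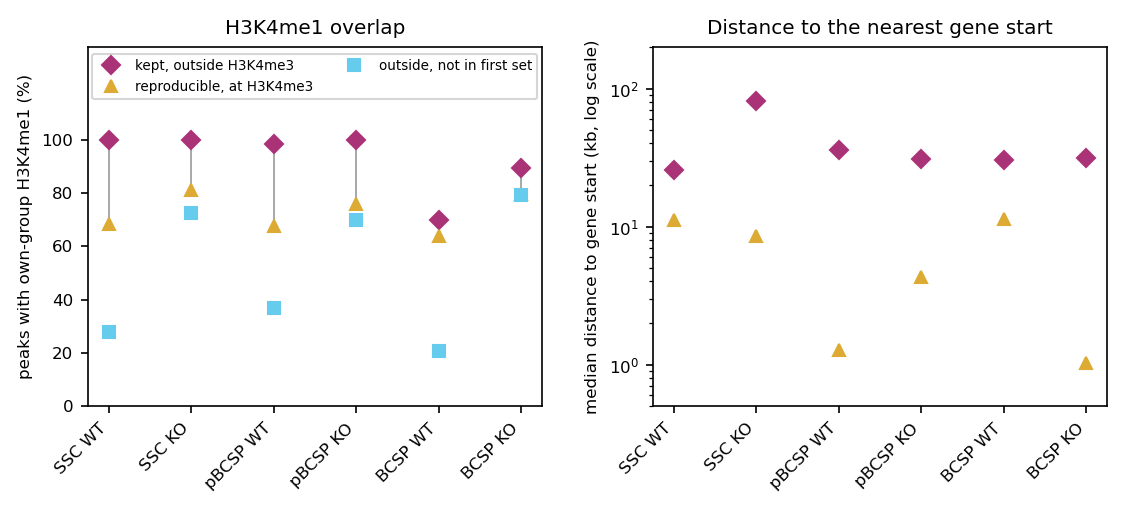
Left, percent of H3K27ac peaks with an H3K4me1 peak of the same group, for kept peaks, reproducible peaks at H3K4me3 sites and peaks outside H3K4me3 that the first set lacks. Right, median distance to the nearest gene start (kb, log scale) for kept peaks and peaks at H3K4me3 sites, with kept peaks above peaks at H3K4me3 sites in all 6 groups of both panels.

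The regions were small and mostly distant from gene starts. Their median width was 257.5 bases (200 to 790), and together they covered 73.8 kb. The nearest protein-coding gene was taken from RefSeq (GRCm38.p6), by its annotated start or, for 64 regions whose gene had none in the tables used, by the nearer end of its span. The median distance was 32.7 kb, from 0.180 to 588 kb, and 81.5% lay over 10 kb away. Only 8 regions lay within 1 kb: 2 at Syt8, 2 at Lsp1, 2 at Slc14a2, 1 at Lpin3 and 1 at Capg. Of the 248, 144 (58.1%) lay inside the span of a protein-coding gene and 104 between genes. Exons and introns were not told apart. Chromosome 7 held 31 regions and chromosome 1 held 27.

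The regions named 199 nearest genes, 36 of them more than once. Among gene lists drawn up for this tissue, the 24 chondrocyte genes included 5 nearest genes with 8 regions: Wwp2, Col11a1, Hapln1, Sox5 and Cytl1. That is 20.8% of the list, beside 0.909% of all 21900 protein-coding genes, and it is a description without a test. The lists were drawn up with earlier results of these data known. All 24 chondrocyte genes passed the RNA filter on low counts, while the 21900 include genes that did not. Wwp2, a ubiquitin ligase gene that hosts the cartilage microRNA miR-140, had 3 regions inside its span, 37.1 to 48.0 kb from its start. They were kept in pBCSP WT (chr8:107473326-107473525), BCSP KO (chr8:107482632-107483232) and BCSP WT (chr8:107484237-107484440), with gaps of 139, 41 and 378 bases to an H3K4me3 peak, and all 3 had H3K4me1 in 6 of 6 lists. Col11a1, a fibrillar collagen gene of cartilage, had 2 regions, 3.16 and 59.9 kb from its start, both kept in pBCSP WT. Hapln1, which encodes the link protein that ties aggrecan to hyaluronan, had 1 region 86.3 kb away, kept in pBCSP KO at 8.84-fold. Sox5, a partner of SOX9 in the cartilage programme, had 1 region inside the gene, 103 kb from an annotated start, kept in pBCSP WT. Cytl1, a secreted protein gene of cartilage, had 1 region 4.13 kb away, kept in BCSP KO.

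Genes of bone, stroma and signalling were fewer among the lists. Sparc had 3 regions, 2 inside the gene (13.99 and 21.6 kb from the start, kept in BCSP KO) and 1 at chr11:55437125-55437852, 17.4 kb from it, kept in both pBCSP groups. First-set peaks covered that last region in 5 of 6 groups. Col3a1, the type III collagen gene of loose connective tissue, had 1 region inside its span, kept in BCSP KO. Fgfr2, a receptor of fibroblast growth factors in the skeleton, had 2 regions, 1 kept in pBCSP WT and 1 in BCSP KO. Bmp5, a bone morphogenetic protein gene, had 1 inside its span, kept in BCSP KO. Gas1, a co-receptor of hedgehog ligands, had 1 region 141 kb away, kept in pBCSP WT. Of 102 skeletal and stromal list genes 7 were nearest genes (6.86%), and of 86 genes marking leukocytes, erythroid, endothelial, muscle, osteoclast, pericyte, fat and Schwann cells 0 were. At the 0.909% share of all protein-coding genes, a count of 0 among 86 is near the background. No gene of the hypertrophic chondrocyte, limb transcription factor, tendon, Wnt, Notch, glycolysis and hypoxia, cytoskeleton, or PTIP and MLL3/4 lists was a nearest gene.

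Regions also stood in clusters. When regions 50 kb or less apart were joined, 81 regions fell into 35 clusters of 2 or more. The largest held 7 regions over 51.5 kb, at Syt8 and Lsp1 (chr7:142434799-142486302). Lsp1 encodes an F-actin-binding protein known from leukocytes. All 7 were kept in BCSP KO and 1, chr7:142485044-142485775, in pBCSP WT as well. In the window drawn around them the BCSP KO second-set list had 16 peaks, pBCSP WT 2, SSC KO and pBCSP KO 1 each, and both SSC WT and BCSP WT none. The first-set lists had 7 peaks there in BCSP WT and 6 in BCSP KO, so the 2 sets differed on the WT side. First-set BCSP WT peaks overlapped both Syt8 regions (3.99-fold and 3.92-fold, beside 4.38-fold in BCSP KO). H3K4me1 covered all 7 regions in 6 of 6 lists. The 2 Syt8 regions lay 19 and 26 bases from the nearest H3K4me3 peak, and within 5 kb of the Syt8 start only the SSC KO list had H3K4me3 peaks. Clusters of 3 regions lay at Wwp2, Myzap and Cgnl1, Cops8, Sparc, Usp29, and Ergic1 and Atp6v0e. Zmiz1 had 4 regions in 2 pairs, and Aopep, Xylt1 and Tomm20 had 3 each. Near Igf2, the imprinted growth factor gene, 2 regions 52.9 and 57.0 kb from a start were both kept in BCSP KO.

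**Figure D4:**
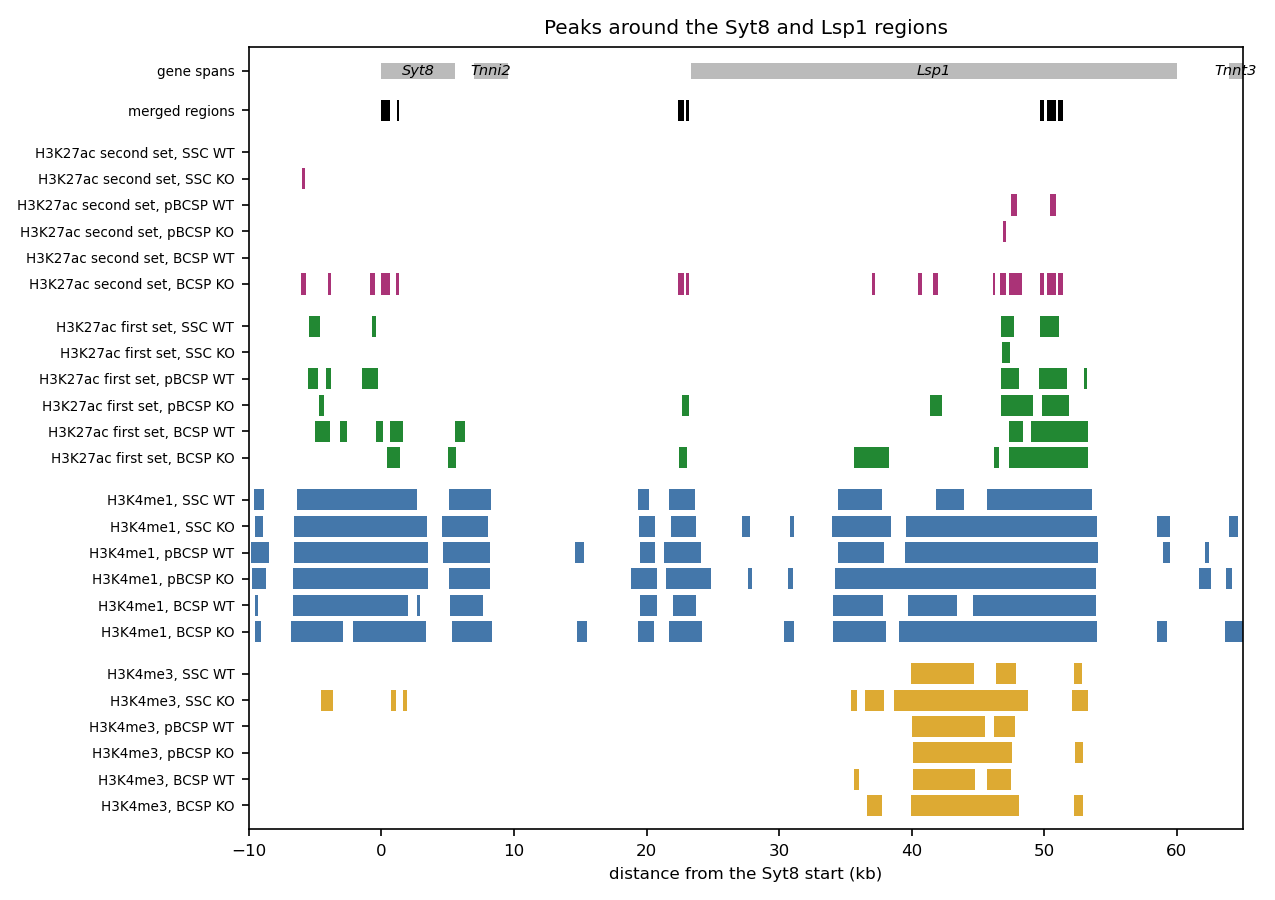
Peaks of the 24 lists around the Syt8 and Lsp1 regions, by distance from the Syt8 start (kb). Black bars are the 7 merged regions, grey bars gene spans, and each row is 1 list, with 16 second-set H3K27ac peaks in BCSP KO and H3K4me1 peaks under the regions in every group.

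RNA of the nearest genes was compared between KO and WT in 12 libraries with 15495915 to 22670899 counts each. Genes with a read numbered 20965 to 23831 in 11 libraries and 13987 in SSC KO replicate 2. All 9 skeletal markers were present in every library, with ranges that overlapped between genotypes. Col2a1 stood at 21136 to 58089 CPM in WT and 23098 to 42315 in KO, Sox9 at 1242 to 4338 and 2611 to 4056, and Acan, the aggrecan gene of cartilage, at 236 to 573 and 546 to 1192. Col1a1, the main collagen gene of bone, stood at 10933 to 39451 CPM in WT and 1470 to 18476 in KO. Pdgfra stood at 37.4 to 209 and 30.4 to 68.5, Itgav at 59.9 to 71.7 and 16.5 to 64.4, Cd200 at 25.7 to 289 and 13.2 to 303, Runx2 at 14.1 to 51.9 and 26.7 to 61.6, and Prrx1 at 24.8 to 61.4 and 15.0 to 58.4. Acan, in the KO libraries, was thus mostly higher and Col1a1 mostly lower. Summed markers of other cells in WT and KO were 24.6 to 264 and 2.98 to 32.3 CPM for erythroid, 81.9 to 2046 and 5.61 to 601 for Schwann, 103 to 295 and 42.6 to 126 for osteoclast, and 29.7 to 302 and 8.15 to 167 for fat cells. They were 35.2 to 121 and 18.4 to 69.0 CPM for endothelial and 44.8 to 681 and 54.6 to 502 for muscle cells. For pericytes they were 305 to 469 and 439 to 720, with the highest sums in KO. Over the 7 pericyte markers tested, however, the median of the average log2 differences, KO minus WT, was -0.97. Most of these markers were thus lower in KO, and the sum does not stand for them. Of 12 erythroid markers 5 were at 0 in some WT library and 8 in some KO library, and of 8 Schwann cell markers 0 and 3 were. The KO libraries include SSC KO replicate 2, with the fewest genes read, and its part in these zeros was not tested. The part of these other cells in the differences below was not tested. In such bulk samples fewer cells of a type and less RNA per cell cannot be told apart.

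Of the 199 nearest genes 198 were matched to the count table and 185 passed the filter on low counts. On average over the 3 populations 8 of the 185 (4.32%) passed the threshold (edgeR's quasi-likelihood test, Benjamini-Hochberg adjusted p under 0.05), 6 higher and 2 lower in KO, where 1.17% of all 17494 genes tested did so. Higher calls made up 0.966% and lower calls 0.206% of all genes. Within a genotype, same-numbered libraries of different populations had correlations of 0.28 to 0.49. The 6 libraries of a genotype are thus not fully independent, and p-values of the average, here and below, may be too small. An unadjusted p under 0.05 was reached by 68 nearest genes (36.8%), beside 19.6% of all genes. The WT and KO libraries did not overlap for 14 nearest genes (7.57%), beside 5.06% of all genes. The median log2 difference was -0.20 over the nearest genes and -0.09 over all genes. Within single populations none of the 185 and no other gene passed edgeR's threshold (0.0% in SSC, pBCSP and BCSP). The unadjusted counts were 19, 18 and 28 nearest genes (10.3%, 9.73% and 15.1%), beside 9.39%, 6.27% and 6.26% of all genes. DESeq2 called 34 nearest genes on average (18.4%, beside 9.92% of all genes), 0 in SSC (beside 0.995%), 3 in pBCSP (1.62%, beside 0.612%) and 5 in BCSP (2.7%, beside 0.709%). No gene's KO effect differed between populations past the threshold (0.0%).

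Syt8 (ENSMUSG00000031098) showed the largest difference among the 8. Its level in SSC was 21.1 and 3.34 CPM in WT and 29.9 and 33.4 in KO. In pBCSP it was 6.23 and 2.65 in WT and 40.0 and 95.2 in KO, and in BCSP 6.80 and 3.15 in WT and 122 and 205 in KO. Every KO library was above every WT library, and the BCSP KO libraries, from the group that kept both Syt8 regions, were the highest. The average log2 difference was 3.44 ± 0.50 (SE, 6 libraries per genotype; edgeR adjusted p = 0.031). Lsp1 (ENSMUSG00000018819), at the other end of the cluster, rose by 0.94 ± 0.18 on the log2 scale (edgeR adjusted p = 0.049). Lsp1 levels were 80.9 to 179 CPM in WT and 169 to 277 in KO, with an overlap through pBCSP WT replicate 1. Summed leukocyte markers were 28.0 to 108 CPM in WT and 40.9 to 128 in KO. Of 16 such markers 12 were at 0 in some KO library and 4 in some WT library. The KO libraries include SSC KO replicate 2, with reads for only 13987 genes, and its part in the zeros was not tested.

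Cartilage genes made up part of the other calls. Sox5 (ENSMUSG00000041540) was 79.7 to 206 CPM in WT and 166 to 412 in KO, with overlap between populations but not within any, and rose by 1.07 ± 0.21 (edgeR adjusted p = 0.049). Hapln1 (ENSMUSG00000021613) was 615 to 1825 CPM in WT and 1616 to 2788 in KO and rose by 1.01 ± 0.19 (edgeR adjusted p = 0.049), with the widest gap in BCSP, at 884 and 615 in WT against 1859 and 2732 in KO. Over the whole chondrocyte list 13 of 24 genes were called higher and 1 lower, beside 0.966% and 0.206% of all genes, and 0 genes of any kind were called on average over the populations in 8 of the 12 fits that left out 1 library. The chondrocyte list was drawn up with earlier results of these data known, so its share of calls is not independent support. Fgfrl1 (ENSMUSG00000008090), a receptor that binds fibroblast growth factors without a kinase domain, rose by 1.29 ± 0.24 (edgeR adjusted p = 0.049). Its levels were 28.2 to 88.1 CPM in WT and 76.6 to 196 in KO. Its region, 32.3 kb away, was kept in SSC KO.

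Efcab1 (ENSMUSG00000068617), a gene of a calcium-binding protein of cilia, was 20.7 to 66.4 CPM in WT and 92.6 to 229 in KO without overlap, and rose by 1.99 ± 0.32 (edgeR adjusted p = 0.036). Its region, kept in SSC KO, lay 228 kb away, among the most distant. Tuft1 (ENSMUSG00000005968), which encodes tuftelin of developing enamel, fell by 1.64 ± 0.26 (edgeR adjusted p = 0.036), from 11.9 to 37.6 CPM in WT to 3.95 to 13.4 in KO. Cgnl1 (ENSMUSG00000032232), a gene of cell junctions, fell by 1.34 ± 0.22 (edgeR adjusted p = 0.039), from 40.6 to 116 CPM to 12.7 to 42.2. All 6 KO libraries were on the called side of their population's WT mean for each of the 8 genes. Tuft1's region, 2.31 kb away, was kept in BCSP KO, so an acetylated region kept in KO lay beside a gene that fell as well as beside genes that rose. These calls rest on the full set of libraries. Without SSC KO replicate 1, the only SSC KO library left is replicate 2, which had reads for 13987 genes, the fewest of all libraries. When replicate 1 of a KO group was left out, the count of 8 became 78 (SSC), 2 (pBCSP) or 17 (BCSP). It became 5 without SSC KO replicate 2 and 0 without any 1 of the other 8 libraries. Syt8 and Tuft1 missed the threshold in 8 of the 12 fits that left out 1 library, Efcab1 and Cgnl1 in 9, and Fgfrl1, Sox5, Hapln1 and Lsp1 in 10. Scaling by RLE size factors also ended the calls of these last 4 (edgeR adjusted p = 0.0503 to 0.0524).

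**Figure D5:**
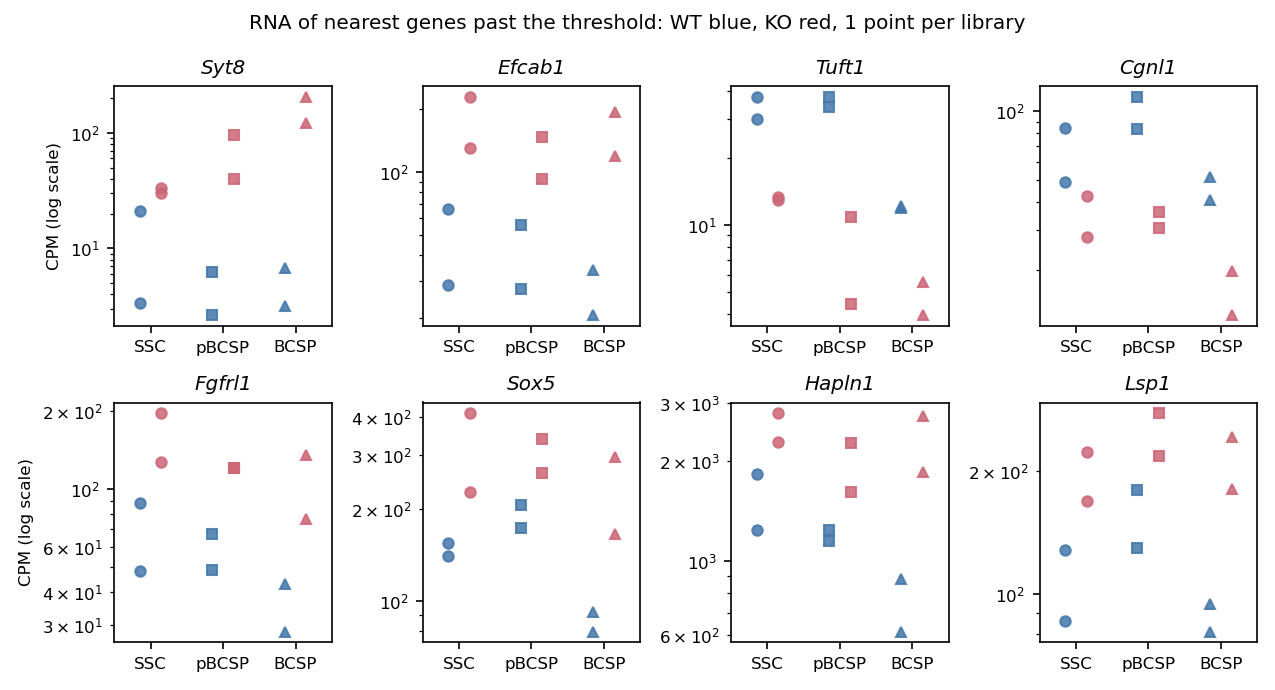
CPM (log scale) of the 8 nearest genes past the threshold on average, 1 point per library, WT blue and KO red, by population. KO points are above both WT points of their population for the 6 genes that rose and below them for Tuft1 and Cgnl1.

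Other nearest genes of the lists did not pass in edgeR. Wwp2 had an average log2 difference of 1.22 ± 0.28 (edgeR adjusted p = 0.073) and Col11a1 one of 0.83 ± 0.20 (edgeR adjusted p = 0.078), and DESeq2 called both (adjusted p = 0.0036 and 0.0069). Gas1 stood at -1.34 ± 0.43 (edgeR adjusted p = 0.15), and DESeq2 called it lower (adjusted p = 0.033). Col3a1 was 6899 and 7171 CPM in BCSP WT and 2306 and 986 in BCSP KO, a log2 difference of -2.10 ± 0.57 that passed in DESeq2 (adjusted p = 0.046) but not in edgeR (adjusted p = 0.56). Its region had been kept in BCSP KO, the group with the lower RNA. Sparc, at 11015 to 23937 CPM in WT and 14842 to 26972 in KO, differed by 0.23 ± 0.19 (edgeR adjusted p = 0.53). Bmp5 differed by 0.47 ± 0.19 (edgeR adjusted p = 0.22), Fgfr2 by -0.34 ± 0.23 (edgeR adjusted p = 0.45) and Cytl1 by -0.08 ± 0.19 (edgeR adjusted p = 0.84). Of genes near regions kept in several groups, Mn1 differed by -1.48 ± 0.34 (edgeR adjusted p = 0.072), Prelp by 0.66 ± 0.31 (0.28), Zmiz1 by -0.31 ± 0.18 (0.38) and Msl2 by -0.09 ± 0.27 (0.88).

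Nearest genes were also divided by the genotype that kept the region. In BCSP, 119 tested genes lay nearest to the 152 regions kept in KO and not in WT. Their median log2 difference in BCSP was -0.19, beside -0.01 over all genes, with 47 above and 72 below 0. In pBCSP, 57 tested genes lay nearest to the 67 regions kept in WT and not in KO. Their median in pBCSP was -0.23, beside -0.03 over all genes, with 19 above and 38 below 0. The smaller classes held 14 tested genes near regions kept in pBCSP KO only (median -0.07), 8 near those in BCSP WT only (-0.27) and 9 near those in SSC KO only (-0.02, beside -0.22 over all genes in SSC). Regions kept in both genotypes of pBCSP had 7 tested genes (median -0.42), while those kept in both genotypes of BCSP and in SSC WT only had 1 each (1.58 and -0.62). Differences between these classes were not tested. Of those 152 BCSP regions 34 had a first-set peak and 128 an H3K4me1 peak in BCSP WT, and of the 67 pBCSP regions 17 and 64 had them in pBCSP KO.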

How the data were processed

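The members and gene lists were chosen with earlier results of these data known. For RNA the authors deposited unnormalised read counts for each gene. ChIP files are peak lists, 1 per library, from MNase-digested chromatin per the labels' protocols. The authors deposited for each peak a score, a fold enrichment (a ratio) and both p and q as −log10. First-set H3K27ac, H3K4me1 and H3K4me3 lists have the broad-peak layout and second-set H3K27ac the narrow one, per the file headers' column number, so the sets are unequal in peak width. Tools named in the submitters' processing notes are MACS2 2.2.6, Bowtie2 2.3.5.1, SAMtools 1.9, Trim Galore 0.6.6 and featureCounts 2.0.1, with build GRCm38. Peak caller settings and strand use were not given in these sources. The 12 input libraries were not used here.

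Overlaps (1 base or more) and merging were computed in Python 3.11.15 and tested on simulated intervals. Counts were scaled by TMM, filtered by filterByExpr (17494 of 55487 genes) and fitted in 1 model with a mean per group in edgeR 4.0.16 (R 4.3.3, 6 residual degrees of freedom). DESeq2 1.42.0 was an alternative. The RNA script was tested on simulated counts. The genes named are the 10 regions kept in most groups, the 10 genes with most regions, list genes, called genes and the 5 highest folds per group. Other genes and the regions without H3K4me1 were chosen after their values were seen. The planned comparison of nearest-gene levels was not run because gene lengths were not used here. Same-numbered WT and KO libraries had correlations of 0.0098, -0.022 and -0.082, so numbers were not taken as pairs. Within a genotype, same-numbered libraries of different populations had correlations of 0.28 to 0.49, so the 6 libraries of a genotype are not fully independent and p-values of the average may be too small.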

Additional observations from a re-analysis of the deposited data

Results flagged for a closer look

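The number of kept H3K27ac peaks moved in opposite directions with genotype: KO minus WT was 8 in SSC, -53 in pBCSP and 143 in BCSP. The second-set lists moved in the same directions from WT to KO: 137 to 1119 peaks in SSC, 3811 to 1105 in pBCSP and 785 to 8572 in BCSP. Kept shares of the reproducible peaks in WT and KO were 1.92% and 2.17%, 5.22% and 4.09%, and 5.35% and 5.34%. The difference between populations was not tested, since each count comes from 1 rule over 1 pair of lists. Cytl1 RNA was singled out because its KO libraries were above the WT mean in SSC (log2 0.39) and below it in pBCSP (-0.46) and BCSP (-0.17). That contrast did not pass the threshold in edgeR's F test over all genes.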

How the results depend on the processing

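The number of regions was 191 with at least 50% of the peak in the first set, 247 without SSC WT, 95 with a −log10 q of 5 or more, 684 with H3K4me3 of the same group only and 118 with no H3K4me3 within 1 kb. With 1 set alone it was 2981 to 4657. The H3K4me1 share stayed between 95.8% and 97.5% in 4 settings and was 92.4% with the 1 kb rule and 66.9% to 74.9% with 1 set alone. The paired H3K4me1 difference was -20.3 to -0.948 with 1 set alone, and the cause was not tested. Without SSC WT, 5 groups cannot pass the threshold: the differences were 17.97 points, 36.7 kb and -32.1 bases (exact p = 0.0625). The width difference was -4.0 with H3K4me3 of the same group only (exact p = 0.75). A −log10 q of 5 or more gave no paired value, since SSC WT then kept no peak. Genes called on average numbered 205 in edgeR with TMM, 140 with RLE factors, 1882 without the filter and 1735 in DESeq2, and 0 to 6147 when 1 library was left out, with the most without SSC KO replicate 1. In SSC, pBCSP and BCSP 0 genes were called, against 395, 260 and 337 without the filter and 174, 107 and 124 in DESeq2. Leaving out 1 library gave 0 to 5908 in SSC and 0 in the other two. Unadjusted p under 0.05 was reached by 1643, 1096 and 1095 genes. The replicate block called 141 genes on average. Nearest genes called numbered 8, 12 with H3K4me3 of the same group only, 4 with RLE factors, 46 without the filter, 34 in DESeq2, 8 with the replicate block and 0 to 78 when 1 library was left out. Under the block Fgfrl1, Hapln1, Lsp1 and Sox5 missed the threshold (edgeR adjusted p = 0.059 to 0.062), as they did with RLE factors (0.0503 to 0.0524), and Mn1 passed (0.041). Genes near 0 changed sign when 1 library was left out: Cd27 ranged from -0.73 to 0.33, Cytl1 from -0.21 to 0.076, Msl2 from -0.32 to 0.078 and Snx29 from -0.26 to 0.39. The lists give no read depth, and kept peaks share few fold values, with 28 distinct values among 153 in BCSP KO.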

Other observations

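Some regions stood out after their values were seen. Beside the fixed lists, nearest genes included the matrix genes Col5a2, Col6a3 and Prelp and the signalling genes Igf2, Dlk1 and Fst, an activin antagonist. Average log2 differences in RNA were -0.88 ± 0.23 for Col5a2 (edgeR adjusted p = 0.096), -1.20 ± 0.28 for Col6a3 (0.073), -2.26 ± 0.74 for Fst (0.15), 0.50 ± 0.34 for Igf2 (0.46) and -0.12 ± 0.17 for Dlk1 (0.73). The region inside Tafa5, kept in pBCSP WT, had second-set peaks in 5 of 6 groups and lay 4 bases from an H3K4me3 peak. Among 153 kept BCSP KO peaks 28 had the same fold enrichment, 5.57, and among 74 kept pBCSP WT peaks 17 had 4.59.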
